A study of Mus musculus with 24 samples.

Results

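The genes described here are 36 named genes of DNA replication and cell division, of which 35 had a probe set that names the gene alone, out of 18194 genes on the arrays. Each gene is represented by 1 probe set, the brightest of its single-gene probe sets by the mean of the 24 arrays. Ccnb1 was not analysed here. The members fall into 20 genes of replication and the G1/S step and 15 genes of mitosis. Tubules were microdissected after collagenase treatment of the left kidney. The donors were male C57BL/6J mice weighing 25 to 30 g, of unstated age, under a cycle of 12 h light and 12 h dark. The 12 groups are 2 tubule segments at 6 zeitgeber times (ZT0, ZT4, ZT8, ZT12, ZT16 and ZT20, with lights on at ZT0 and off at ZT12). One segment is the distal convoluted and connecting tubule as 1 sample (DCT/CNT), the other the cortical collecting duct (CCD). Each group has 2 arrays, 1 for each of 2 RNA pools, with RNA of 5 animals combined per time and 10 ng amplified per array. The labels name no allele or agent for any group, and they do not state whether both pools of a time, or both segments, came from the same animals. The spread between pools may therefore be technical.

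Cells copy their DNA once per division. The MCM helicase is loaded at origins by Cdc6 and Cdt1, joined by the GINS complex to open the double strand, and followed by the sliding clamp PCNA, its loader RFC, and the flap nuclease and ligase that join the lagging strand. D-type and E-type cyclins drive the passage from G1 into S phase, and a separate set of kinases, cyclins, motors and checkpoint proteins moves the chromosomes in mitosis. In the adult kidney, tubule cells divide rarely, and these genes are best known there from the response to injury. The comparisons ask whether the members differ between the segments, whether they follow the time of day, and whether they do so differently in the segments.

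Promoters are shown for 5 members because E2F sites, read by the factors of the G1/S step, and the CHR element, read by the DREAM and B-MYB complexes at mitosis genes, mark the classes into which the members fall. Of the 35 measured members, 28 matched a promoter of the RefSeq set (assembly GRCm38.p6, 250 bases before to 50 after the start), namely 15 of the replication group and 13 of the mitosis group. Motifs were searched on both strands, and their letters are in capitals. They are the CHR element TTTGAA, the CCAAT box, the E2F sites TTCGCGC and TTGGCGC, which overlap where TTGGCGCGAA stands, and the E-box CACGTG, the site of the clock factors.

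Mcm6 (chr1:128359656-128359955, minus strand): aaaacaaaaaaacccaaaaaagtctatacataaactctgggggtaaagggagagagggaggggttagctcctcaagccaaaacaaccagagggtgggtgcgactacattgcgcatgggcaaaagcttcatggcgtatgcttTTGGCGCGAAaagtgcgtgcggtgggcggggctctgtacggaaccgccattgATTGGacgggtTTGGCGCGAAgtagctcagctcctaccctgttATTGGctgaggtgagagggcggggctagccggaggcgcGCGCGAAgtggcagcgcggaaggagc
Ccne1 (chr7:38107441-38107740, minus strand): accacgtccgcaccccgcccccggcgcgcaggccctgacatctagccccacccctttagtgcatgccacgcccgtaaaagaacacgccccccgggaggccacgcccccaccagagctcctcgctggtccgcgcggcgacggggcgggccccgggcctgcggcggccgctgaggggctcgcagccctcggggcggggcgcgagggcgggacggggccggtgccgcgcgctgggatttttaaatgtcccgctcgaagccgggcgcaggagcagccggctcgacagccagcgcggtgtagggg
Cdc20 (chr4:118437294-118437593, minus strand): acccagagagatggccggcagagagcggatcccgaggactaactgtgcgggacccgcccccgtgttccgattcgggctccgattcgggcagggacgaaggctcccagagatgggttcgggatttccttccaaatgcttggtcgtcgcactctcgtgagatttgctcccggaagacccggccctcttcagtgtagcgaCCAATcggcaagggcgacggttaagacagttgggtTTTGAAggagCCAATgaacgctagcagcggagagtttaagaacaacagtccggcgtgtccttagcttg
Cenpa (chr5:30666636-30666935, plus strand): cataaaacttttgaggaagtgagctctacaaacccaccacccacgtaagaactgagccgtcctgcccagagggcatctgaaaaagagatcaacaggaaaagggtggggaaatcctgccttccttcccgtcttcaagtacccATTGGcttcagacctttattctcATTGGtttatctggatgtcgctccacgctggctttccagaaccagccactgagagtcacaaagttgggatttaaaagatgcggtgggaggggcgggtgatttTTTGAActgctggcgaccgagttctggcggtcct
Cdk1 (chr10:69352863-69353162, minus strand): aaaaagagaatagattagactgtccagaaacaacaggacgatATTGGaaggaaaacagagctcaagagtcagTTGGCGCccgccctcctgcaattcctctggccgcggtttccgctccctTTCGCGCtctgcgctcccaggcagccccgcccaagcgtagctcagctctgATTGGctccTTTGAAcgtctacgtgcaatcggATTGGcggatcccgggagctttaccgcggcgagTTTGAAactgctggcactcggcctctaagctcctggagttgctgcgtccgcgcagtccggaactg

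The mitosis promoters held the CHR letters in 10 of 13 and the CCAAT box in 12 of 13, against 20.2% and 41.1% of the 27025 promoters in the set. In the replication group these counts were 2 and 8 of 15. The E2F letters stood in 7 of 15 replication promoters and 2 of 13 mitosis promoters, against 4.47% of all. Among the promoters printed, Mcm6 holds 5 E2F matches, counting overlapping ones separately, Cdk1 holds 2 E2F and 2 CHR matches, and Cdc20 and Cenpa hold 1 CHR match each beside 2 CCAAT boxes. Ccne1 has none of these letters in this window. The E-box stood in 3 replication promoters (Tyms, Fen1 and Lig1) and 0 mitosis promoters, against 8.09% of all. A match is only a description of letters.

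The arrays of the segments were not alike in range, which bears on all differences between them. The interquartile range over all genes was 3.47 to 3.84 log2 units on DCT/CNT arrays and 4.30 to 4.50 on CCD arrays. As a scale of dimness, the 71 measured receptor genes of olfactory and vomeronasal neurons were used, and a value was called dim at or below their 95th percentile on the same array. That percentile was between 5.34 and 6.16 in DCT/CNT and between 4.80 and 5.59 in CCD. The segment markers followed the labels. Slc12a3, the sodium-chloride cotransporter of the distal convoluted tubule, averaged 10.77 ± 1.24 in DCT/CNT and 5.28 ± 0.48 in CCD (SD over 12 arrays). Aqp2, the collecting duct water channel, averaged 7.95 ± 0.15 and 10.25 ± 0.20.

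Most replication genes were measured well above the dim range, while most mitosis genes were not. In the replication group 17 of 20 genes were dim on no array, and in the mitosis group 3 of 15 (Mki67, Cdk1 and Ccna2). Ccne2, a cyclin of the G1/S step, and Bub1, a kinase of the spindle checkpoint, were dim on all 24 arrays. The other 13 members were dim on some. DCT/CNT arrays had 6 to 13 dim members each and CCD arrays 3 to 9. Levels of different genes cannot be set against each other here, since each probe set has its own response.

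**Figure D1:**
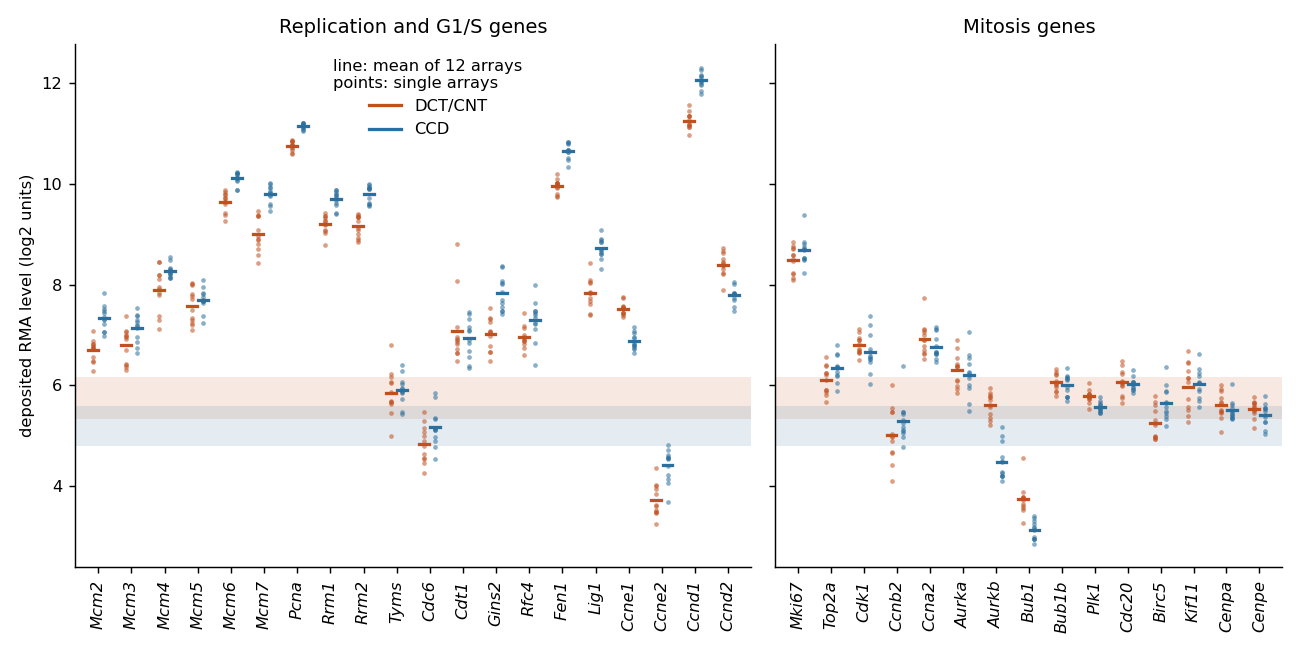
Deposited log2 level of each member on the 12 DCT/CNT and 12 CCD arrays (points) with the segment means (lines), for the replication and G1/S genes on the left and the mitosis genes on the right. Shaded bands give the range over arrays of the 95th percentile of the receptor genes, 5.34 to 6.16 in DCT/CNT and 4.80 to 5.59 in CCD, and 12 of the 15 mitosis genes were dim on some or all arrays.

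Between the segments, 15 of 20 replication genes were lower in DCT/CNT in the deposited values, while 10 of 15 mitosis genes did not pass the test in either direction. In all, 22 of 35 members passed the test at adjusted p under 0.05, where 77.4% of all genes did. Of these, 17 were lower in DCT/CNT (background 47%) and 5 higher (background 30.4%). The replication group had 15 lower, 2 higher and 3 that did not pass, and the mitosis group 2 lower, 3 higher and 10 that did not pass. The median difference, DCT/CNT minus CCD, was -0.43 log2 units in the replication group and 0.09 in the mitosis group, against -0.13 over all genes and 0.34 over the receptor genes. In such tissue samples, fewer cells of a type and less RNA per cell cannot be told apart.

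Of the 6 helicase subunits 5 were lower in DCT/CNT as deposited, as was Gins2. Mcm7, a subunit of the MCM helicase, had a lowest, median and highest level of 8.43, 8.93 and 9.46 on DCT/CNT arrays and of 9.46, 9.82 and 10.01 on CCD arrays. All 12 DCT/CNT arrays lay below all 12 CCD arrays, although the nearest values met to the second decimal. The difference was -0.80 (SE 0.10, 1.74-fold, adjusted p = 1.51e-06). Gins2, a subunit of the GINS complex that activates the helicase, had 6.48, 7.06 and 7.54 in DCT/CNT and 7.41, 7.78 and 8.36 in CCD, so the ranges overlapped at their edges. Its difference was -0.81 (SE 0.10, 1.75-fold, adjusted p = 2.34e-06). Among the other helicase subunits Mcm2 (-0.65, SE 0.10), Mcm6 (-0.47, SE 0.07), Mcm4 (-0.38, SE 0.12) and Mcm3 (-0.33, SE 0.13) were lower as well, and Mcm5 did not pass (-0.12, SE 0.11, 95% interval -0.35 to 0.11). Of the loaders, Cdc6 was lower by a margin near the threshold (-0.32, SE 0.13, adjusted p = 0.0401) and dim on 12 DCT/CNT and 7 CCD arrays. Cdt1 did not pass (0.15, SE 0.22, 95% interval -0.32 to 0.61), with its highest DCT/CNT value of 8.80 well above the DCT/CNT median of 6.89.

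The enzymes of strand synthesis and nucleotide supply went the same way. Fen1, the nuclease that trims the flaps of lagging strand fragments, had a lowest, median and highest level of 9.75, 9.99 and 10.19 in DCT/CNT and of 10.34, 10.67 and 10.83 in CCD. The segments did not overlap, and the difference was -0.70 (SE 0.05, 1.62-fold, adjusted p = 4.53e-09). Lig1, the ligase that seals those fragments, had 7.40, 7.84 and 8.42 in DCT/CNT and 8.31, 8.70 and 9.08 in CCD. This was the most negative difference of the members as deposited, at -0.89 (SE 0.09, 1.85-fold, adjusted p = 2.87e-07), with 1 edge of overlap. Pcna, the sliding clamp, lay between 10.58 and 10.87 in DCT/CNT and between 11.04 and 11.21 in CCD, without overlap (-0.40, SE 0.04, adjusted p = 2.66e-07). Rrm2 and Rrm1, the subunits of ribonucleotide reductase, which makes deoxynucleotides, were lower by -0.64 (SE 0.07) and -0.50 (SE 0.06), the first without overlap. Rfc4, a subunit of the clamp loader, was lower by -0.34 (SE 0.12, adjusted p = 0.0189), and Tyms, which makes the thymidine nucleotide, did not pass (-0.05, SE 0.12, 95% interval -0.31 to 0.21).

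The G1 and G1/S cyclins were split. Ccnd1, the cyclin D1 gene, had a lowest, median and highest level of 10.96, 11.23 and 11.56 in DCT/CNT and of 11.78, 12.05 and 12.30 in CCD. The groups were apart on all arrays, with a difference of -0.80 (SE 0.04, 1.74-fold) and the smallest adjusted p of the members (2.87e-10). Ccnd2, the cyclin D2 gene, ran the other way, with 7.90, 8.40 and 8.72 in DCT/CNT and 7.47, 7.81 and 8.05 in CCD, and some overlap. It was higher in DCT/CNT by 0.61 (SE 0.08, 1.53-fold, adjusted p = 5.07e-06). Ccne1, the cyclin E1 gene, had 7.36, 7.53 and 7.75 in DCT/CNT and 6.65, 6.82 and 7.15 in CCD. It did not overlap between the segments and was higher in DCT/CNT by 0.65 (SE 0.06, 1.57-fold, adjusted p = 1.18e-07). Ccne2 was lower by -0.69 (SE 0.12), with all its values in the dim range. Over all members, 5 lay on all DCT/CNT arrays below all CCD arrays (background 19.4%) and 2, Ccne1 and Aurkb, above (background 8.43%).

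In the mitosis group, 10 of 15 genes did not pass. They include Mki67, the gene of the Ki-67 division marker, which had a lowest, median and highest level of 8.09, 8.55 and 8.84 in DCT/CNT and of 8.22, 8.70 and 9.37 in CCD (difference -0.19, SE 0.10, 95% interval -0.41 to 0.03). They also include Cdk1, the central kinase of mitosis (0.15, SE 0.12, 95% interval -0.11 to 0.40), and Ccna2, the cyclin A2 gene (0.15, SE 0.12, 95% interval -0.10 to 0.41). These 3 genes were dim on no array, and their ranges overlapped widely between the segments. The other 7, namely Ccnb2, Aurka, Bub1b, Cdc20, Kif11, Cenpa and Cenpe, had differences from -0.27 to 0.12.

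The 5 mitosis genes that passed lay partly in the dim range. Aurkb, a kinase of the chromosomal passenger complex, had a lowest, median and highest level of 5.20, 5.65 and 5.95 in DCT/CNT and of 4.09, 4.38 and 5.18 in CCD. The groups did not overlap, and the deposited values differed by 1.12 (SE 0.13, adjusted p = 9.30e-07). All 12 CCD values and 9 DCT/CNT values of Aurkb were dim, so this is no ratio of levels above background. The receptor genes themselves had a median difference of 0.34 in this direction, and 45 of 71 were called higher. Bub1, dim throughout, was higher by 0.62 (SE 0.10), and Plk1, a kinase of mitotic entry and exit, by 0.22 (SE 0.05, adjusted p = 0.00162), dim on 6 DCT/CNT arrays and 1 CCD array. Birc5, the survivin gene, was lower by -0.39 (SE 0.14, adjusted p = 0.0192) and dim on 11 DCT/CNT and 2 CCD arrays. Top2a, a topoisomerase that untangles chromosomes, was lower by -0.23 (SE 0.10, adjusted p = 0.0451), and failed the test in 15 of 24 refits that each left out an array (up to 0.0989). Of the other members that passed, Cdc6 failed in 13 such refits and Mcm3 in 8. In refits that each left out a time, Top2a and Cdc6 failed in 3 of 6 (up to 0.252 and 0.200), Rfc4 in 2 (up to 0.0733), and Mcm3, Mcm4 and Birc5 in 1 each (0.0838, 0.0617 and 0.0868).

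How the arrays are scaled decided part of this. With all arrays brought to equal medians, the members split into 11 lower and 12 higher, where 33.2% and 43.8% of all genes were called. Quantile normalisation gave 11 lower and 7 higher (background 31.6% and 33%), and cyclic loess 12 and 7 (background 33.1% and 33.3%). The median over all genes moved from -0.13 as deposited to 0.08, 0.01 and 0.00078. Under all 4 scalings, 8 replication genes stayed lower at adjusted p under 0.05, namely Mcm2, Mcm7, Rrm2, Gins2, Fen1, Lig1, Ccne2 and Ccnd1, and Ccne1 and Ccnd2 stayed higher. Of these, Ccne2 was dim on all 24 arrays, with differences of -0.69 as deposited and -0.48, -1.03 and -0.99 after rescaling. Lig1, for instance, was lower by -0.89, -0.68, -0.47 and -0.44 in turn, while Ccnd2 was higher by 0.61, 0.82, 1.02 and 1.04. Mcm3, Mcm4, Mcm6, Pcna, Rrm1 and Rfc4 did not pass after quantile or cyclic loess normalisation, and Mcm4 and Pcna changed sign there, to between 0.01 and 0.04. With equal medians Mcm3, Mcm4 and Rfc4 did not pass either (adjusted p = 0.399, 0.202 and 0.317), nor did Cdc6 (-0.11, adjusted p = 0.442). In the mitosis group Aurkb and Bub1, dim on 21 and 24 of the 24 arrays, stayed higher under all 4, and 0 stayed lower. Of the 71 receptor genes, 65 were called higher with equal medians, 32 after quantile and 24 after cyclic loess normalisation. Plk1 did not pass after quantile or cyclic loess normalisation, and Top2a and Birc5 did not with equal medians. Cdk1 and Ccna2 passed as higher under each of the 3 scalings other than the deposited one (0.28 to 0.36 and 0.32 to 0.37), and Mki67 did after quantile (0.25) and cyclic loess (0.28) normalisation. Ccnb2 passed as lower after quantile (-0.50) and cyclic loess (-0.53) normalisation, and was dim on 11 DCT/CNT and 6 CCD arrays. With equal medians 10 of 15 mitosis genes were higher and 0 lower. The position of these genes between the segments therefore depends on the scaling, and Mcm5, not called under any of the 4, went from -0.12 as deposited to 0.09, 0.25 and 0.23. With the mean of all probe sets of a gene in place of the brightest, 16 members were lower and 9 higher (background 45.4% and 32%).

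**Figure D2:**
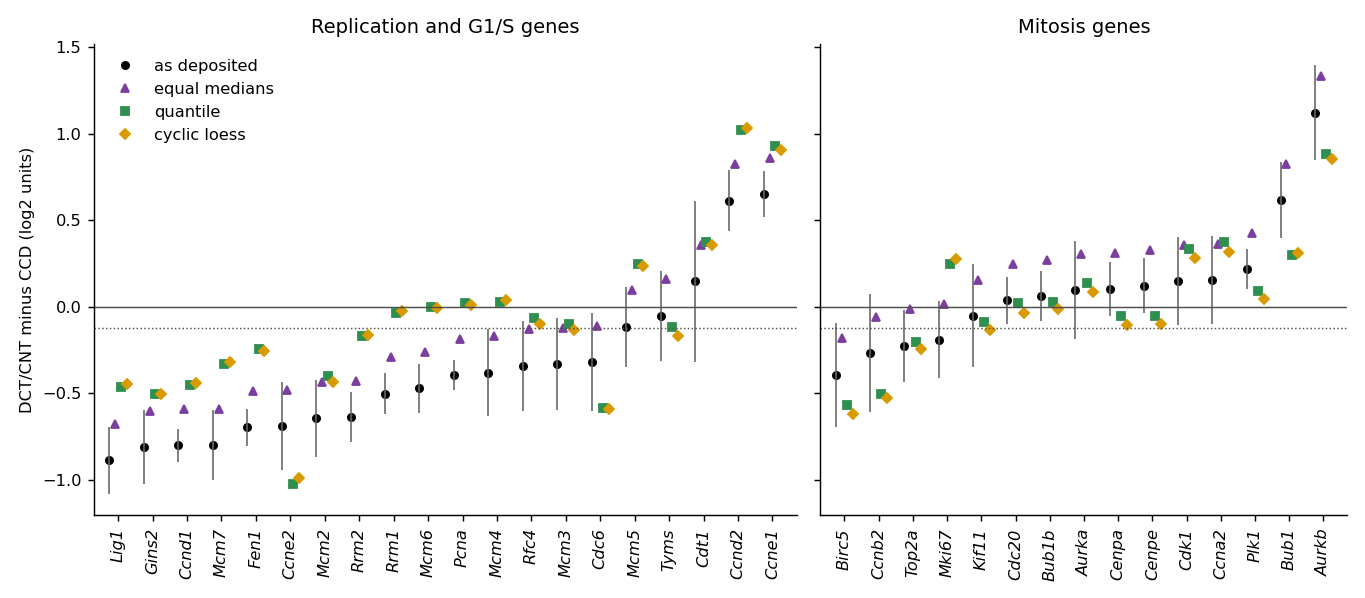
Difference of each member between the segments (DCT/CNT minus CCD, log2 units) as deposited with its 95% interval, and after equal medians, quantile or cyclic loess scaling, in the order of the deposited differences within each role. The dotted line is the median gene as deposited, -0.13. Lig1, at -0.89 as deposited, stays below 0 under all 4 scalings, and Ccne1, Ccnd2, Aurkb and Bub1 stay above it.

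Other probe sets of the same genes gave a second view of some of these differences. More than 1 probe set was measured for 26 members. Of the 22 members that passed, 16 had another probe set. In 12 of these all other probe sets had the same sign, such as both others of Ccnd1 (-0.56 and -0.49), the second of Fen1 (-1.16), the second of Gins2 (-0.73), the second of Ccne1 (0.33), and all 6 others of Ccnd2 (0.06 to 0.53). The second probe set of Fen1 was far dimmer than the one used, with means of 4.22 in DCT/CNT and 5.38 in CCD. In 4 genes, Mcm3, Mcm6, Rrm1 and Top2a, a dimmer probe set was called in the opposite direction. Top2a had both others higher in DCT/CNT (0.20 and 0.70), so its direction depends on the probe set, and Rrm1 had 1 other lower (-0.53) and 1 other higher (0.67). Of the 35 probe sets used, 10 carry a suffix by which the array's naming marks probes shared with other transcripts. They are 6 of the kind _x_at (Mcm4, Mcm5, Mcm6, Rrm2, Fen1 and Ccne1) and 4 of the kind _s_at (Mcm3, Mcm7, Rfc4 and Aurkb).

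Markers of other cell types were present in both segments and differed between them in part. The counts are for the deposited values, where 47% of all genes were called lower and 30.4% higher in DCT/CNT. Of the thick ascending limb markers 4 of 7 were higher and 2 lower in DCT/CNT, with a summed level of 12.97 to 13.69 there and of 12.81 to 13.40 in CCD. This sum mostly follows Kcnj1, 1 of the 2 lower genes, at 12.41 in DCT/CNT and 12.69 in CCD. Slc12a1 of the same list was at 7.64 and 6.83. Whether Kcnj1 came from cells of that limb or from the sampled segments was not tested. Of the proximal tubule markers 5 of 11 were lower and 0 higher (11.50 to 12.85 against 11.79 to 13.22). The leukocyte list had 2 of 10 higher and 0 lower (10.70 to 11.67 against 10.90 to 11.51), the endothelial list 3 of 7 lower and 1 higher (11.09 to 11.44 against 11.08 to 11.65), and the list of vascular smooth muscle and fibroblasts 5 of 8 higher and 1 lower (10.10 to 10.82 against 10.17 to 10.53). Podocyte markers had 2 of 4 higher (9.82 to 10.58 against 9.70 to 10.35) and erythroid markers 2 of 2 (4.76 to 5.56 against 4.50 to 4.86). Nphs1, Wt1, Itgam, Hba-a1 and Alas2, of the podocyte, leukocyte and erythroid lists, were dim on all 24 arrays. Other genes of these lists, such as Podxl and Synpo of podocytes and Csf1r and Lyz2 of myeloid cells, were dim on 0 arrays. Ptprc, the common leukocyte gene, was at 8.36 ± 0.31 in DCT/CNT and 8.46 ± 0.22 in CCD. The part of these cell types in the members' levels was not tested.

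Over the day in DCT/CNT, 3 of 35 members passed the test for a 24 h rhythm at adjusted p under 0.05, where 6.57% of all genes did. They are Gins2 in the replication group and Cdc20 and Cenpa in the mitosis group. At unadjusted p under 0.05 there were 9 of 35, where 24.5% of all genes were. Fitted amplitudes, the distance from mean to peak, ranged from 0.03 to 0.52 log2 units over the members with a median of 0.16, against a median of 0.13 over all genes. The test over the 6 group means, which assumes no curve, called 0 members (background 2.47%).

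Gins2 was highest in the light phase. Its pools in DCT/CNT were at 6.66 and 6.65 at ZT0, 7.05 and 7.32 at ZT4, 7.34 and 7.54 at ZT8, 7.25 and 7.07 at ZT12, 7.07 and 6.79 at ZT16, and 6.48 and 6.98 at ZT20. Both pools at ZT8 lay above all other arrays of the segment, the nearest being the second pool at ZT4. The fitted amplitude was 0.37 (SE 0.09, 1.67-fold from trough to peak) with the peak at ZT 8.74 (adjusted p = 0.0397). In 9 of 24 refits that each left out an array Gins2 no longer passed (adjusted p up to 0.110, without DCT/CNT ZT8 replicate 2), nor did it in 5 of 6 that each left out a time (up to 0.204). Its other probe set had an amplitude of 0.13 (SE 0.07) with a peak at ZT 7.87 and did not pass (adjusted p = 0.421). The mean of both probe sets did not pass in DCT/CNT either (adjusted p = 0.0745).

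Cdc20, the activator of the anaphase-promoting complex, was highest in the dark. In DCT/CNT its pools were at 6.09 and 6.05 at ZT0, 5.76 and 5.65 at ZT4, 6.00 and 5.78 at ZT8, 6.23 and 6.07 at ZT12, 6.41 and 6.27 at ZT16, and 6.47 and 5.99 at ZT20. Both pools at ZT4 lay below all others of the segment, and at ZT20 the pools were far apart. The fitted amplitude was 0.29 (SE 0.06, 1.50-fold) with the peak at ZT 17.0 (adjusted p = 0.0147). Without ZT4 or ZT16 the call was lost (adjusted p = 0.178 without ZT4), as it was without DCT/CNT ZT4 replicate 2 (adjusted p = 0.0503). The other probe sets, 2 in number, had amplitudes of 0.11 (SE 0.15) and 0.07 (SE 0.07), and the mean of the 3 probe sets did not pass (adjusted p = 0.394).

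Cenpa, the histone variant that marks centromeres, was also highest in the dark. Its DCT/CNT pools were at 5.48 and 5.67 at ZT0, 5.66 and 5.36 at ZT4, 5.07 and 5.45 at ZT8, 5.48 and 5.51 at ZT12, 5.74 and 6.01 at ZT16, and 5.90 and 5.94 at ZT20. The pools of ZT16 and ZT20 lay above all other arrays of the segment. The fitted amplitude was 0.31 (SE 0.07, 1.53-fold) with the peak at ZT 19.0 (adjusted p = 0.0251). It no longer passed in 4 refits without an array (adjusted p up to 0.0730, without DCT/CNT ZT8 replicate 1), without ZT8, ZT12, ZT16 or ZT20 (up to 0.130), and after cyclic loess normalisation (0.0550). Its other probe sets, both dimmer, peaked at ZT 8.83 and ZT 22.8 with amplitudes of 0.26 (SE 0.15) and 0.05 (SE 0.11), and the mean of the 3 did not pass (adjusted p = 0.885).

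The dim range and markers of several cell types moved over the same hours in DCT/CNT. The 95th percentile of the receptor genes rose from a mean of 5.44 at ZT4 to 6.00 at ZT16 and 5.97 at ZT20, and Cenpa was dim on 9 of 12 DCT/CNT arrays and Cdc20 on 1. The summed proximal tubule level was 11.60 at ZT4 and 11.65 at ZT8, against 12.80 at ZT12, 12.40 at ZT16 and 12.45 at ZT20, and 1 of its 11 genes passed the rhythm test. The summed leukocyte level was 11.39 at ZT4 and 11.42 at ZT8, against 10.96 to 11.04 at the other times. Its pools were apart, at 11.67 and 11.10 at ZT4 and at 11.20 and 11.65 at ZT8. Gins2 averaged 7.18 at ZT4, 7.44 at ZT8 and 7.16 at ZT12, where the leukocyte level was 11.02. In CCD the summed leukocyte level was 11.41 at ZT8 and 10.96 to 11.23 at the other times. Of the 10 leukocyte genes 1 passed the rhythm test in DCT/CNT and 0 in CCD. Of the DCT and CNT markers themselves 5 of 9 passed in DCT/CNT, with a summed level of 15.10 at ZT8 and 15.43 at ZT20. In the mitosis group 13 of 15 fitted peaks in DCT/CNT fell in the dark phase, where 10257 of all 18194 genes (56.4%) and 55 of the 71 receptor genes did. In the replication group 11 of 20 did. Whether these courses take part in the members' rhythm was not tested.

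Ccnb2, the cyclin B2 gene, had the widest swing of the members and did not pass. Its DCT/CNT pools were at 5.04 and 4.69 at ZT0, 4.42 and 4.10 at ZT4, 4.99 and 4.90 at ZT8, 5.48 and 5.48 at ZT12, 6.01 and 4.65 at ZT16, and 4.98 and 5.56 at ZT20. The pools of ZT16 were further apart than the lowest and highest group means, which were 4.26 at ZT4 and 5.48 at ZT12. Its fitted peak was at ZT 15.4, with an amplitude of 0.52 (SE 0.16, 2.06-fold, adjusted p = 0.0995) and 11 of 12 values dim. It passed without DCT/CNT ZT16 replicate 2 (adjusted p = 0.0186) and without CCD ZT12 replicate 1 (0.0484). Mcm4 (amplitude 0.35, SE 0.11, peak ZT 4.10, adjusted p = 0.125) was the next of the members by amplitude after Ccnb2 and Gins2, and its pools at ZT20 were at 8.19 and 7.11.

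**Figure D3:**
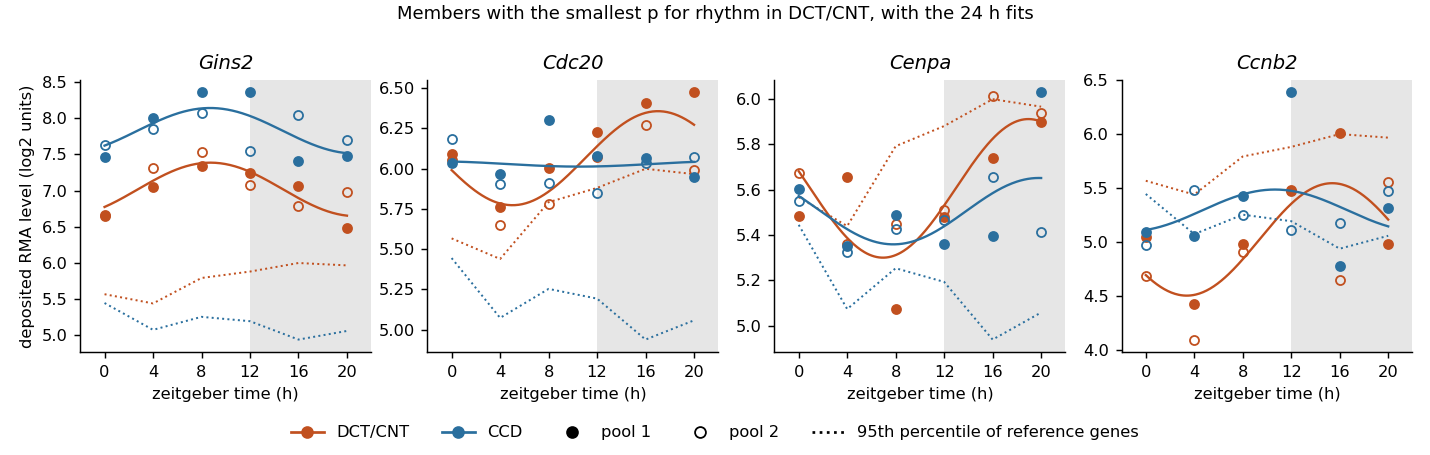
Deposited log2 level of Gins2, Cdc20, Cenpa and Ccnb2 by zeitgeber time (h) in both pools of each segment, with the fitted 24 h curves. The grey area is the dark phase and dotted lines are the mean 95th percentile of the receptor genes. In DCT/CNT Gins2 peaks at ZT 8.74 and Cdc20 and Cenpa at ZT 17.0 and ZT 19.0, and the Cenpa values run near the dotted line, which reaches 6.00 at ZT16.

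In CCD limma called 0 of 35 members rhythmic, where 2.47% of all genes were called. At unadjusted p under 0.05 there were 3 (background 14.2%), namely Ccnd1, Gins2 and Fen1, and the test over group means called 0 (background 0.643%). Ccnd1 had CCD pools at 11.84 and 11.78 at ZT0, 12.05 and 12.06 at ZT4, 12.12 and 12.15 at ZT8, 12.30 and 12.26 at ZT12, 11.96 and 12.14 at ZT16, and 11.98 and 12.02 at ZT20. Both pools of ZT12 lay above, and both of ZT0 below, all other arrays of the segment. Its fitted peak was at ZT 11.2, with an amplitude of 0.18 (SE 0.05, 1.29-fold) that did not pass (adjusted p = 0.0970). It passed with equal medians (adjusted p = 0.0347), quantile normalisation (0.0475) and array weights (0.0255). In DCT/CNT the Ccnd1 amplitude was 0.15 (SE 0.05, peak ZT 14.2, adjusted p = 0.124), with the highest pools, 11.44 and 11.56, again at ZT12.

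Gins2 had nearly the same fitted peak in CCD as in DCT/CNT. Its CCD pools were at 7.47 and 7.63 at ZT0, 8.004 and 7.86 at ZT4, 8.36 and 8.07 at ZT8, 8.36 and 7.55 at ZT12, 7.41 and 8.04 at ZT16, and 7.48 and 7.70 at ZT20. Both pools at ZT8 were high, while the pools of ZT12 and ZT16 disagreed. The fitted peak was at ZT 8.71 with an amplitude of 0.32 (SE 0.09, adjusted p = 0.149), and it passed without CCD ZT12 replicate 2 (adjusted p = 0.0393) and as the mean of its probe sets (0.0449). Fen1 peaked at ZT 9.80 with an amplitude of 0.16 (SE 0.05, adjusted p = 0.194), and Lig1, which did not pass in either segment, peaked at ZT 8.79 in DCT/CNT and ZT 9.15 in CCD. Rrm1 peaked in the dark, at ZT 18.7 in DCT/CNT (0.16, SE 0.06, adjusted p = 0.173) and ZT 19.6 in CCD (0.15, SE 0.06, adjusted p = 0.390). Cdc20 had an amplitude of 0.02 (SE 0.06) in CCD and lay between 5.85 and 6.30, and Cenpa one of 0.15 (SE 0.07, peak ZT 19.8, adjusted p = 0.528). In the mitosis group 4 of 15 fitted CCD peaks fell in the dark phase, where 45.8% of all genes and 41 of the 71 receptor genes did.

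The rhythms were not shown to differ between the segments. With limma 0 of 35 members passed the test of the difference, where 0.011% of all genes did. At unadjusted p under 0.05 there was 1 (background 8.89%), namely Cdc20 (adjusted p = 0.441), and the interaction test over group means called 0. A member called in DCT/CNT and not in CCD is therefore not shown to be rhythmic in DCT/CNT alone.

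**Figure D4:**
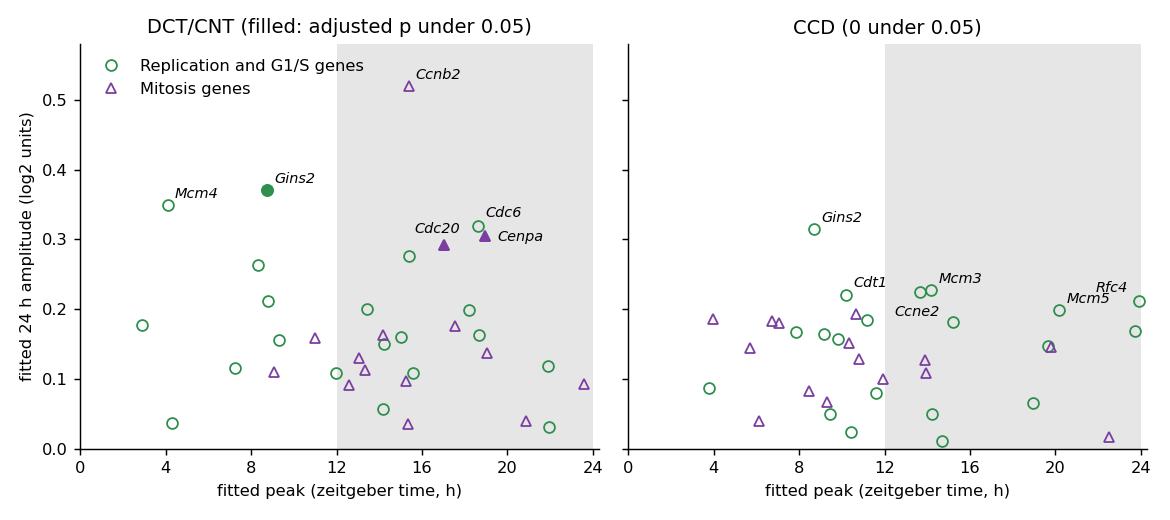
Fitted 24 h amplitude (log2 units) against fitted peak (zeitgeber time, h) of the 35 members in each segment, with replication and G1/S genes as circles and mitosis genes as triangles; grey marks the dark phase and filled symbols the 3 members with adjusted p under 0.05. In DCT/CNT 13 of the 15 mitosis genes lie in the dark phase, and in CCD 4 do.

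The pools of a group disagreed on the members more than on other genes in 11 of the 12 groups, by the median distance between them. In DCT/CNT at ZT8 this distance was 0.34 over the members and 0.20 over all genes, and in CCD at ZT12 it was 0.31 and 0.14. At CCD ZT12, 12 of 15 mitosis genes were higher in pool 1, by a median of 0.45 over the group, and 12 of 20 replication genes were, by a median of 0.11. At DCT/CNT ZT12 the members' median distance was 0.12, against 0.17 over all genes. The source of these distances was not tested.

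Of 39 further genes of the replication machinery, 5 passed for rhythm in DCT/CNT (background 6.57%) and 1 in CCD (background 2.47%). Among them were Orc6, of the origin recognition complex (amplitude 0.43, SE 0.09, peak ZT 3.85), Gins4, the partner of Gins2 in the GINS complex (0.24, SE 0.05, peak ZT 7.79), Dut, which clears dUTP (0.19, SE 0.04, peak ZT 4.57), and Rfc2, of the clamp loader (0.22, SE 0.04, peak ZT 22.9). The gene called in CCD was Pola2, a subunit of the primase complex (0.28, SE 0.06, peak ZT 7.55). Between the segments 21 were lower (background 47%) and 8 higher (background 30.4%) in DCT/CNT as deposited, with a median difference of -0.22. There were 11 lower and 12 higher at equal medians (background 33.2% and 43.8%). After quantile normalisation there were 9 and 10 (background 31.6% and 33%), and after cyclic loess 9 and 9 (background 33.1% and 33.3%). Gins4 was lower by -0.77 (SE 0.05) and Pola2 by -0.66 (SE 0.06), while Cdc45, the third part of the active helicase, was higher by 0.60 (SE 0.06). The 5 rhythmic genes named here each failed in at least 2 of the 6 refits that left out a time. Dut failed in all 6 (adjusted p up to 0.223), Gins4 in 5 (up to 0.115) and Pola2 in 4 (up to 0.352). Rfc2 failed without ZT8 or ZT12 (up to 0.0707) and Orc6 without ZT4 or ZT16 (up to 0.194).

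Of 40 further mitosis genes, 2 passed for rhythm in DCT/CNT (background 6.57%) and 0 in CCD (background 2.47%) by limma. At unadjusted p under 0.05 there were 4 in CCD (background 14.2%). Foxm1, the transcription factor of the G2/M programme, peaked in the dark as Cdc20 and Cenpa did. Its DCT/CNT pools were at 7.18 and 6.97 at ZT4 and at 7.50 and 7.65 at ZT16, and its fitted curve peaked at ZT 16.2 with an amplitude of 0.26 (SE 0.05, adjusted p = 0.00525). It was dim on 0 arrays and passed in all 24 refits without an array, but not without ZT4 (adjusted p = 0.0728) nor as the mean of its probe sets (0.256). Ncapg, a condensin subunit, peaked at ZT 7.08 instead (amplitude 0.60, SE 0.12, adjusted p = 0.0133) and did not pass as the mean of its probe sets (0.442). Between the segments 4 were lower (background 47%) and 12 higher (background 30.4%) as deposited, with a median of 0.16. There were 3 lower and 26 higher with equal medians (background 33.2% and 43.8%). After quantile normalisation there were 9 and 15 (background 31.6% and 33%), and after cyclic loess 8 and 15 (background 33.1% and 33.3%). Bub3, of the spindle checkpoint, was lower by -0.61 (SE 0.04), and Ttk, another kinase of that checkpoint, was higher by 1.01 (SE 0.10) with 22 of its 24 values dim.

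Of 45 genes of cell cycle control (kinases, phosphatases, inhibitors and transcription factors), 11 passed for rhythm in DCT/CNT (background 6.57%) and 6 in CCD (background 2.47%). Between the segments 33 were lower (background 47%) and 6 higher (background 30.4%) in DCT/CNT as deposited, with a median difference of -0.55. There were 28 lower and 10 higher with equal medians (background 33.2% and 43.8%). After quantile (background 31.6% and 33%) and after cyclic loess normalisation (background 33.1% and 33.3%) there were 23 and 11. Cdk6, the kinase partner of D-type cyclins, was highest near lights on. Its DCT/CNT pools were at 9.06 and 8.98 at ZT4 and at 8.03 and 7.96 at ZT12, and its CCD pools at 9.38 and 9.36 and at 8.69 and 8.57. The amplitude was 0.53 (SE 0.05, 2.08-fold, peak ZT 2.35) in DCT/CNT and 0.41 (SE 0.05, 1.77-fold, peak ZT 1.57) in CCD. Both passed in all refits without an array and without a time.

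Wee1, the kinase that holds Cdk1 inactive and a known clock target, was highest at or after lights off. Its DCT/CNT pools rose from 7.36 and 7.86 at ZT4 to 8.45 and 8.34 at ZT12, and its CCD pools from 6.91 and 7.61 to 8.44 and 8.21. The CCD amplitude was 0.56 (SE 0.09, 2.18-fold, peak ZT 13.6, adjusted p = 0.00218), and was lost without ZT0 or ZT12 (adjusted p up to 0.0636). E2f3, an activating E2F factor, had an amplitude of 0.48 (SE 0.07, peak ZT 3.22) in DCT/CNT and of 0.29 (SE 0.07, peak ZT 5.20, adjusted p = 0.0493) in CCD, and the latter failed in 18 of 24 refits without an array (up to 0.160). Ccng2, a cyclin found in resting cells, passed for rhythm in DCT/CNT (0.39, SE 0.05, peak ZT 5.58) and not in CCD. The difference of its rhythm between the segments did not pass (adjusted p = 0.411), while its level was lower in DCT/CNT by -0.59 (SE 0.05). Cdc25b, a phosphatase that activates Cdk1, peaked at ZT 4.70 in DCT/CNT (0.32, SE 0.07) and at ZT 8.82 in CCD (0.39, SE 0.07). The first failed without ZT4, ZT8, ZT12 or ZT16 (adjusted p up to 0.199) and the second without ZT0 or ZT8 (up to 0.152). Myc, a transcription factor of cell growth, peaked in CCD at ZT 19.0 (0.46, SE 0.08, adjusted p = 0.0120), and failed without ZT8, ZT16 or ZT20 (up to 0.265). It was lower in DCT/CNT by -1.57 (SE 0.07) and dim on 12 of the 24 arrays.

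**Figure D5:**
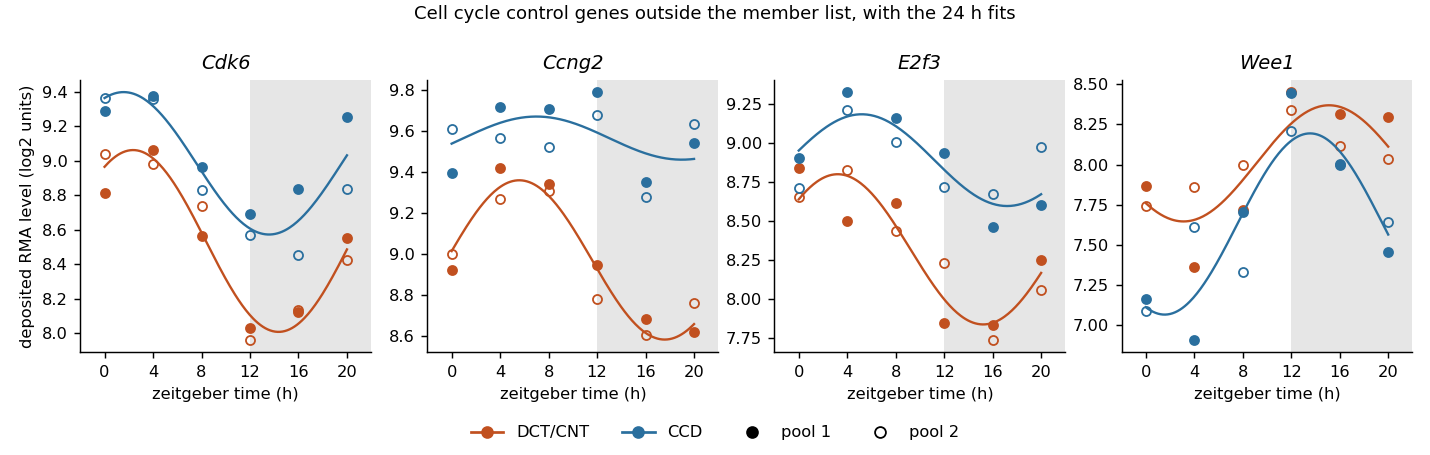
Deposited log2 level of Cdk6, Ccng2, E2f3 and Wee1 by zeitgeber time (h) in both pools of each segment, with the fitted 24 h curves and the dark phase in grey. Cdk6 peaks at ZT 2.35 in DCT/CNT and ZT 1.57 in CCD, and the CCD curve of Wee1 peaks at ZT 13.6 with a 2.18-fold swing.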

How the data were processed

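The deposited values are log2 expression values made by the authors with RMA, per the submitters' processing notes, which do not say whether both segments were processed in 1 run. They cover 45101 probe sets, of which 34958 name 1 gene, 932 several and 9211 none, giving 18194 genes. No rescaling and no removal of dim genes was applied in the reported fits. With limma 3.58.1 in R 4.3.3, rhythms were tested with 24 h cosine and sine terms and a mean for each segment, and segment differences with the means of all 12 groups (DCT/CNT minus CCD, times weighted equally). Benjamini-Hochberg adjustment ran over all 18194 genes, at 0.05. The scripts were tested on simulated data. All 36 listed members are accounted for. Up to 4 other genes are named in each list and test, by the smallest adjusted p. The members, lists and tests were chosen with earlier results of these data known. The reported fits did not pair the arrays by pool number. Over 66 pairs of groups, deviations from the group means correlated by -0.21 to 0.17, with 5 pairs above 0.1. Most of these pairs join different times, and the segments at the same time were not examined apart. Whether pools share animals cannot be judged from this. Alternatives were other scalings, the mean of a gene's probe sets, leaving out dim genes, array weights, each segment fitted alone, a test over group means, a replicate block, and leaving out each array and each time. The number of arrays limits the precision.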

Additional observations from a re-analysis of the deposited data

How the results depend on the processing

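The count of members rhythmic in DCT/CNT, 3 as reported, fell to 1 with the mean of all probe sets, with array weights, without ZT4 and without ZT20, and to 0 with DCT/CNT fitted alone, in the test over group means and without ZT16. It ranged from 1 to 4 over the omissions of single arrays. With the mean of all probe sets the 1 call was another gene of the replication group, and Gins2, Cdc20 and Cenpa did not pass. The count in CCD, 0 as reported, was 1 with equal medians, quantile normalisation, the mean of all probe sets or array weights, and 0 to 1 over the omissions. Members lower in DCT/CNT were 11 with equal medians and 11 after quantile normalisation (14 to 19 over the omissions), and members higher were 12 with equal medians, 9 with the mean of all probe sets and 3 with dim genes left out (5 to 6 over the omissions). In the replication group 9 were lower after quantile and 9 after cyclic loess normalisation (13 to 15 over the omissions). In the mitosis group the count of lower genes was 0 with equal medians, 1 without ZT0, ZT4 or ZT12, and 1 to 4 over the omissions, and that of higher genes was 10 with equal medians, 5 after quantile and 5 after cyclic loess normalisation, 6 with the mean of all probe sets and 1 with dim genes left out (3 to 4 over the omissions). Among members that passed as deposited, the segment difference changed sign for Mcm4 (0.025 after quantile and 0.039 after cyclic loess normalisation), for Pcna (0.019 and 0.0082) and for Top2a as the mean of its probe sets (0.22, adjusted p = 0.000405). The cause was not tested. With the pool number as a replicate block, 3 members were rhythmic in DCT/CNT, 0 in CCD and 22 differed between the segments, 17 lower and 5 higher, and no single-gene call changed.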
